A study of Mus musculus with 15 samples.

Results

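Amino acid transporter genes were examined in sperm DNA of G1 male C57BL/6 mice, as 6 families named by symbol: Slc1a, Slc6a, Slc7a, Slc36a, Slc38a and Slc43a. A CpG was counted as a member when it lay inside the RefSeq span of such a gene, or within 2 kb on either side, in the mouse build GRCm38.p6 (mm10). The gene table held 65 genes with these symbols, 62 of them protein coding and 3 long non-coding RNAs named for a neighbouring transporter (Slc36a3os, Slc36a1os and Slc6a19os). Of these, 53 had at least 1 measured CpG, and together they held 500 of the 204492 CpGs of the series. The 500 CpGs comprised 468 inside a gene span and 32 in the flanks alone, and 23 of them also lay inside the span of another gene.

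Methylation had been measured by reduced representation bisulfite sequencing (RRBS), in which the enzyme MspI cuts DNA at CCGG and bisulfite converts unmethylated cytosines, so that reads keep a C only where it was methylated. There were 8 libraries with the diet label PR, protein restricted, and 7 with the diet label Control. All were sperm of male C57BL/6 mice of generation G1, and no genotype, age or treatment other than diet was given. The labels leave unsaid whether the sampled mice or a parent ate the diet, and which libraries share a mouse, litter or batch, and a p-value here therefore reflects only how far the libraries spread, part of which may be technical.

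Amino acid transporters are membrane proteins that carry amino acids and related molecules into and out of cells and organelles. The Slc1a family takes up glutamate and neutral amino acids, Slc6a uses sodium and chloride to carry neurotransmitters and amino acids, and Slc7a holds cationic carriers and the light chains that pair with a glycoprotein heavy chain. Slc36a members move small amino acids with protons, Slc38a members carry glutamine and other neutral amino acids, and Slc43a1 and Slc43a2 carry large neutral amino acids. In mature sperm most CpGs outside CpG-rich promoters are known to be highly methylated, while such promoters are mostly unmethylated.

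The promoters of these genes were nearly empty of measured CpGs. RefSeq promoter windows, from 250 bases before to 50 after a start, were matched for 47 of the genes as 68 windows, of which 2 (2.94%) held a listed CpG, against 322 of 32851 windows over all genes (0.980%). A member window held a median of 9.5 CG pairs, against 7 over all windows, and the letters CCGG, which read the same on both strands, occurred in 63.2% of member windows and in 52.8% of all windows. The 2 windows with measured CpGs are shown with a CpG-rich window that had none. They belong to Slc6a13 (chr6:121300038-121300337, plus strand), which encodes a GABA transporter, Slc7a7 (chr14:54410154-54410453, minus strand), which encodes the light chain of a cationic amino acid exchanger, and Slc38a2 (chr15:96699679-96699978, minus strand), which encodes a system A carrier. Sequences are from RefSeq, build GRCm38.p6, 5′ to 3′; capitals mark the measured CpGs in the Slc6a13 and Slc7a7 windows, and every CG pair in the Slc38a2 window, none of which was measured.
Slc6a13 promoter: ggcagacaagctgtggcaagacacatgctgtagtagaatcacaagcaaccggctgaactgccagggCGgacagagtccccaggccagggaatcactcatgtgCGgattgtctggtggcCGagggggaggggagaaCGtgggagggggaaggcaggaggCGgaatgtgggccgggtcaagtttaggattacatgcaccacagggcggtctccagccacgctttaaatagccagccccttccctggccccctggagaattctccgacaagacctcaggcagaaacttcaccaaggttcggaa
Slc7a7 promoter: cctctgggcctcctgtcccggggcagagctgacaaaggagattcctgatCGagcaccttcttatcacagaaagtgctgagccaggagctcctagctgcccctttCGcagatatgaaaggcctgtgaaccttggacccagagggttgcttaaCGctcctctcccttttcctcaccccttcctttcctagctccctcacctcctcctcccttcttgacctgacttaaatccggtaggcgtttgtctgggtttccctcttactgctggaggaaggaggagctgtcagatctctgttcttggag
Slc38a2 promoter: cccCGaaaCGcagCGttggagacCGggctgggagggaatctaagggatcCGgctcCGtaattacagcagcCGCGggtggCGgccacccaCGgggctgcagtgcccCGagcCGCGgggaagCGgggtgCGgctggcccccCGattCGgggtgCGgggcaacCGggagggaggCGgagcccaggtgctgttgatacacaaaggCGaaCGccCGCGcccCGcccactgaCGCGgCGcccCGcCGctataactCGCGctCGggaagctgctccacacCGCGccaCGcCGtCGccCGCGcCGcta

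The Slc6a13 window held 11 CG pairs, 5 of them measured, and all 5 were highly methylated. In order along the printed strand they averaged 98.4%, 97.5%, 96.4%, 94.3% and 98.2% in PR, against 98.5%, 98.6%, 98.1%, 95.5% and 96.7% in Control. The Slc7a7 window held 6 CG pairs with 3 measured, counted from 1 at the 5′ end of the printed sequence. The CpG at place 50 was partly methylated, at 80.8% ± 5.28 in PR and 78.5% ± 9.91 in Control, while the one at place 105 stood at 98.8% ± 1.79 in PR and 98.8% ± 2.15 in Control. Here and throughout, errors are SD over libraries, n = 8 for PR and n = 7 for Control, unless an SE is named. The Slc38a2 window held 41 CG pairs. A CpG without a value is one that the list leaves out, and its methylation is not known from these data.

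That list sets what can be seen. Every position in it had at least 11 methylated reads in every library, over the 500 transporter CpGs as over all 204492, so weakly methylated CpGs of ordinary depth are missing from it. Counts summed over all positions ran from 6650912 to 10712016 in PR libraries and from 7846118 to 11841657 in Control libraries, and the median coverage of a transporter CpG was 26 to 39 reads per library. Reads carried no molecular identifiers, so depth bounds counting error only. Listed CpGs upstream of paternally methylated imprinted genes had 97.2% ± 3.19 in PR and 98.9% ± 0.822 in Control for Meg3 (3 CpGs). For Rasgrf1 (4 CpGs) they had 92.1% ± 3.20 in PR and 92.9% ± 1.99 in Control. The CpGs of the series outside the transporter genes averaged 95.3% with either diet, so these values cannot serve as a check of the tissue. The region upstream of H19 held 0 listed CpGs. So did the examined starts of maternally methylated imprinted genes, which check nothing either, since few promoters of any kind are listed. The starts of Peg10 and Impact were not given and were not examined.

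Coverage of the genes by the assay was uneven. Slc38a1 held 44 CpGs, Slc38a4 35 and Slc38a2 28, which together make 107 on chromosome 15. These 3 genes encode system A carriers of small neutral amino acids. Next came Slc7a1, the main arginine and lysine carrier of many cells, with 23 CpGs, and Slc38a10 with 21. Values for a gene rest on 3 or more CpGs in 44 genes. A further 9 genes had only 1 or 2 CpGs, among them Slc1a4, Slc6a7, Slc6a9, Slc6a14, Slc36a4, Slc38a3 and Slc43a1. No CpG was listed for 12 genes: Slc1a6, Slc6a8, Slc6a15, Slc6a18, Slc6a19, Slc6a19os, Slc6a20a, Slc7a3, Slc7a4, Slc7a6os, Slc7a10 and Slc7a12. Their methylation was not analysed here.

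The 500 listed transporter CpGs were highly methylated with either diet, in a list that leaves out weakly methylated CpGs of ordinary depth. The mean was 95.98% ± 0.182 in PR and 96.02% ± 0.152 in Control, a difference of -0.0473 percentage points ± 0.0863 (SE). Libraries ran from 95.7% to 96.2% in PR and from 95.8% to 96.2% in Control, and the groups overlapped. CpGs of other Slc genes, 1988 in number, averaged 96.1% in PR and 96.1% in Control, and the 203992 CpGs of the series outside the transporter genes, which include them, 95.3% in PR and 95.3% in Control. Of the transporter CpGs 9.2% had a mean under 90%, against 8.5% of other Slc CpGs and 10.3% of all CpGs outside the transporter genes. These shares are descriptions of lists that share libraries, with no test.

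The families differed more from each other than the diets did. Slc6a, the neurotransmitter and neutral amino acid carriers, was highest, with 98% ± 0.203 in PR and 98% ± 0.320 in Control over 110 CpGs, and none of its CpGs lay under 90%. Slc36a had 96.7% ± 0.706 in PR and 96.6% ± 0.820 in Control over 28 CpGs. Slc38a, the largest with 192 CpGs, had 96.6% ± 0.284 in PR and 96.6% ± 0.154 in Control. The other three families were lower. Slc7a had 93.9% ± 0.447 in PR and 94.1% ± 0.686 in Control over 111 CpGs, Slc1a 93.7% ± 0.392 in PR and 94.0% ± 0.472 in Control over 47 CpGs, and Slc43a 93.4% ± 0.777 in PR and 93.2% ± 0.621 in Control over 12 CpGs. In each family the PR and Control libraries overlapped. The libraries of neighbouring families in this order also overlapped, except those of Slc38a and Slc7a. The low families owed their means to few CpGs: 9 of 47 CpGs of Slc1a, 16 of 111 of Slc7a and 1 of 12 of Slc43a were under 90%, and the median CpG of each family stood between 98% and 98.6%.

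**Figure D1:**
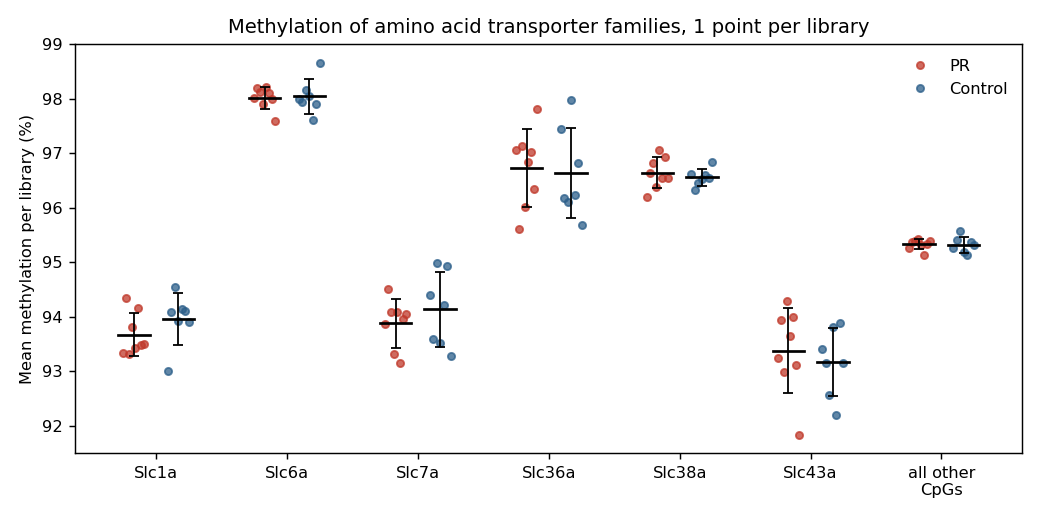
Mean methylation (percent) of the listed CpGs of each family, 1 point per library, PR left of Control; bars are the mean and whiskers the SD over 8 PR and 7 Control libraries. Slc6a sits near 98%, Slc1a, Slc7a and Slc43a near 93 to 94%, and in every family the points of the diets overlap.

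Grouped by what they carry, the genes showed the same picture, with the libraries of the diets overlapping in every list. These role lists, like the members, were drawn up with earlier results of these data known, and their values carry no test. The excitatory glutamate carriers stood at 96.0% ± 0.417 in PR and 96.1% ± 0.515 in Control over 40 CpGs. GABA, betaine and taurine carriers had 98% ± 0.268 in PR and 98.2% ± 0.393 in Control over 49 CpGs. The monoamine carriers for noradrenaline, dopamine and serotonin (Slc6a2, Slc6a3 and Slc6a4) had 98.1% ± 0.377 in PR and 97.7% ± 0.645 in Control, and all 3 genes had the higher mean in PR, by 0.575, 0.568 and 0.0476 points. Genes for the glycoprotein-associated light chains, such as the large neutral amino acid carrier Slc7a5 and the cystine carrier Slc7a11, had 93.1% ± 0.565 in PR and 93.1% ± 0.823 in Control over 77 CpGs.

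The smaller role lists also overlapped between diets. The ASCT exchangers Slc1a4 and Slc1a5 had 80.6% ± 1.76 in PR and 81.5% ± 1.26 in Control over 7 CpGs, the lowest level of any list. Carriers of glycine and proline in neurons had 97.9% ± 0.699 in PR and 98.1% ± 0.637 in Control over 15 CpGs, and those of neutral amino acids in epithelia and neurons 98.2% ± 0.715 in PR and 98.3% ± 0.770 in Control over 14. The proton-coupled carriers had 96.6% ± 0.767 in PR and 96.5% ± 0.851 in Control over 26 CpGs, and the system A and N and large neutral amino acid lists equal the Slc38a and Slc43a families.

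The cationic amino acid carriers had the widest gap between diets, for its error, of the role lists. Their 34 CpGs averaged 95.6% ± 0.364 in PR and 96.5% ± 0.612 in Control, a difference of -0.823 ± 0.265 points (SE), with libraries from 94.9% to 96.0% in PR and from 95.5% to 97.4% in Control. The groups overlapped, and the 3 measured genes, Slc7a1, Slc7a2 and Slc7a14, each had the lower mean in PR. Of the 34 CpGs 21 were lower in PR, 12 higher and 1 equal. With a coverage minimum of 20 reads the difference was -0.0782 points, over the CpGs that remained. The list holds the transporter CpG with the largest difference, in Slc7a1, which had as few as 15 reads in a library and was not among them. Without that CpG alone the difference of the list was -0.439 ± 0.320 points (SE).

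Among single genes, levels of the listed CpGs were close to complete methylation with a few exceptions. Of the 44 genes with 3 or more CpGs, 38 had a mean of at least 95%, 31 of at least 97%, and only 4 lay under 90%. The median gene stood at 97.9%, against 97.8% over the 13665 genes of the series with as many CpGs. Slc38a9, which encodes a lysosomal arginine sensor of the mTORC1 pathway, was among the highest, at 98.8% ± 0.550 in PR and 98.7% ± 0.639 in Control. The glial glutamate carrier Slc1a2 had 98.2% ± 0.588 in PR and 98.3% ± 0.696 in Control. Even the lowest gene of Slc6a with 3 or more CpGs, Slc6a21, had 97.7% ± 0.808 in PR and 97.7% ± 0.805 in Control, and the lowest such gene of Slc43a was at 98.3% over all libraries.

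Slc1a5, the gene of the glutamine exchanger ASCT2 (chromosome 7, 16781334 to 16798274), was the lowest of the 44. Its 5 CpGs averaged 74.5% ± 2.44 in PR (lowest library 70.8%, median 74.0%, highest 78.3%) and 75.1% ± 2.13 in Control (72.9%, 74.9% and 78.6%). The groups overlapped over nearly their whole range. Within the gene 4 of 5 CpGs were under 90%, and 3 of them, from position 16796421 to 16796451, formed a run at 66.1% ± 3.67 in PR and 66.4% ± 4.18 in Control. Slc1a4, the gene of the related exchanger ASCT1, had 95.8% ± 2.1 in PR and 97.4% ± 1.93 in Control over 2 CpGs.

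Slc7a7 (chromosome 14, 54369442 to 54420068) came next and held the clearest local pattern. Its 17 CpGs averaged 83.4% ± 2.03 in PR (80.5%, 84.5% and 85.5% as lowest, median and highest library) and 83.5% ± 2.14 in Control (80.8%, 83.4% and 87.3%), and the groups overlapped. The gene alternated between partly and fully methylated stretches. Distances are counted from the RefSeq start of the printed promoter, which lies 250 bases into the printed sequence. The 3 CpGs from -3818 to -3635 bp, upstream of that start but inside the gene span, averaged 60.2% ± 5.64 in PR and 59.3% ± 6.52 in Control. In the printed promoter the run stood at 92.9% ± 2.06 in PR and 91.1% ± 2.74 in Control over its 3 CpGs, with the capitals at places 105 and 152 near full methylation. From 1436 to 1472 bp downstream the level was again 60.1% ± 7.54 in PR and 63.6% ± 12.3 in Control. From 28343 bp downstream to the last, 8 CpGs each had a mean over libraries between 94.4% and 99.2%. RefSeq gives further starts of Slc7a7, and the CpGs at 1436 to 1472 bp lie 705 to 741 bp from the nearest of them. The change of level along the gene was far larger than the spread between libraries, and it had the same shape with either diet.

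**Figure D2:**
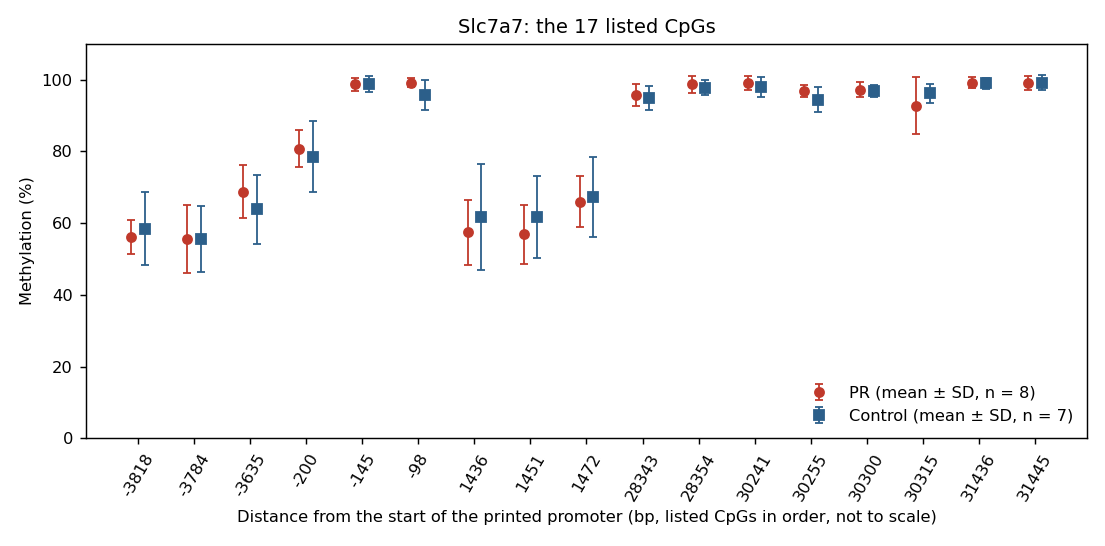
Methylation (percent) of the 17 listed CpGs of Slc7a7 in order along the gene, as mean ± SD over 8 PR libraries (left of each pair) and 7 Control libraries. Labels are the distance in bp from the RefSeq start of the printed promoter, which lies 250 bases into the printed sequence (spacing not to scale). Stretches near 60% lie on both sides of the promoter CpGs at -145 and -98 bp, which are at 95.8% or more with either diet.

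The other genes under 90% were Slc36a1 and Slc38a11. Slc36a1, the gene of a proton-coupled carrier found on lysosomes, had 88.7% ± 2.30 in PR and 87.8% ± 3.33 in Control over 4 CpGs. A single CpG at position 55205858 of chromosome 11, at 56.4% ± 7.71 in PR and 54.0% ± 13.5 in Control, accounts for the low mean, since the gene's other CpGs are above 90%. Slc38a11, a little-studied member of its family, had 89.4% ± 3.08 in PR and 87.3% ± 3.32 in Control over 10 CpGs, of which 7 were under 90%. Slc1a1, the neuronal glutamate carrier, came next with 92.6% ± 0.997 in PR and 91.4% ± 1.38 in Control over 5 CpGs, and its low CpG, at position 28887482 of chromosome 19, had 67.0% ± 4.01 in PR and 62.1% ± 6.93 in Control.

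**Figure D3:**
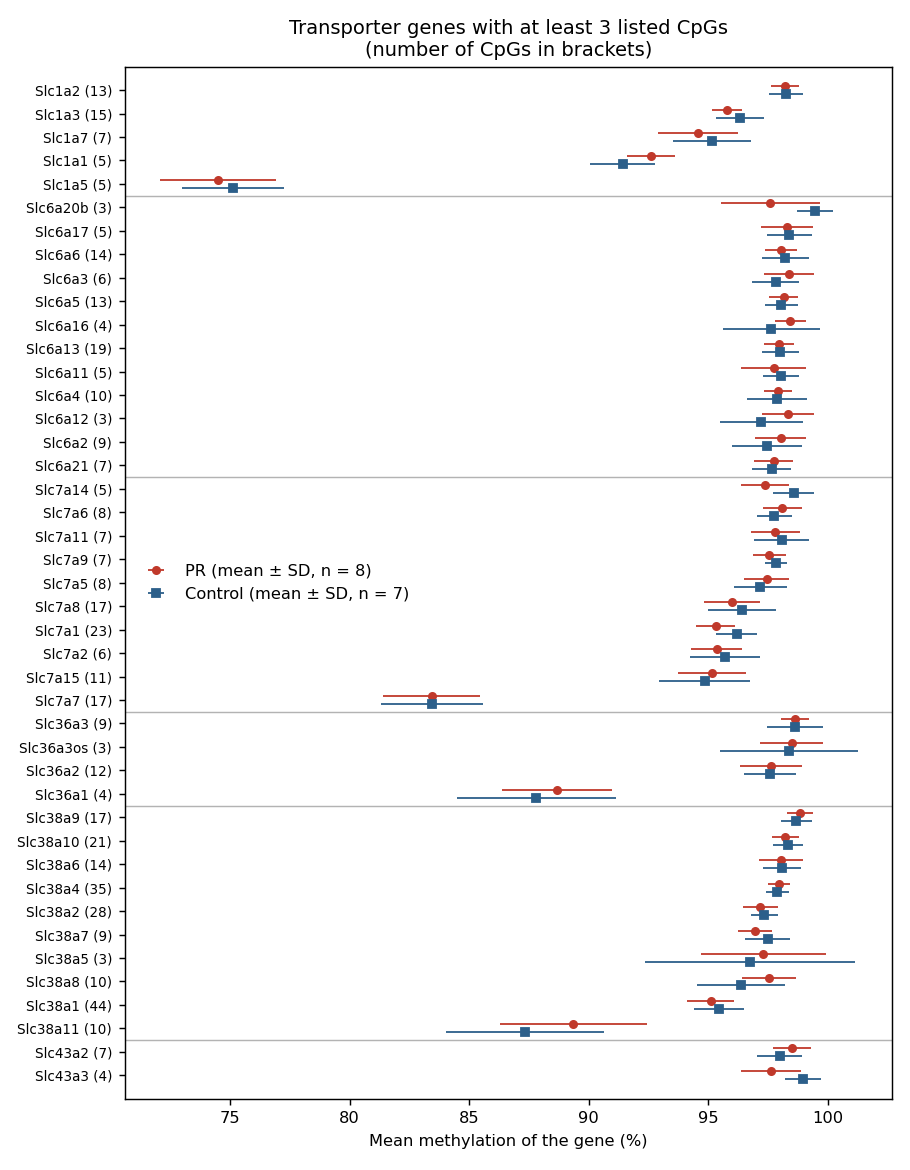
Mean methylation (percent) of the reported transporter genes with at least 3 listed CpGs, by family, as mean ± SD over 8 PR libraries (red circles, upper) and 7 Control libraries (blue squares, lower); the number of CpGs is in brackets. Most genes lie above 95%, and Slc1a5, Slc7a7, Slc36a1 and Slc38a11 stand below 90% with either diet.

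Partly methylated CpGs were few and concentrated in this list, which leaves out weakly methylated CpGs of ordinary depth. Only 46 of 500 CpGs had a mean under 90%, 15 were under 70% and 2 under 50%, while 293 were at 98% or more and 6 were at 100% in every library. The 46 lay in 19 genes, and 24 of them in 4 genes, which were picked by this count. These were 7 of 17 listed CpGs in Slc7a7, 7 of 10 in Slc38a11, 6 of 44 in Slc38a1 and 4 of 5 in Slc1a5. Slc38a1 also holds the most listed CpGs of any transporter gene. The lowest CpG was the only listed CpG of Slc43a1, the gene of the large neutral amino acid facilitator LAT3, at position 84851600 of chromosome 2. It had 40.6% ± 7.63 in PR (29.2%, 41.2% and 50.6%) and 36.2% ± 4.12 in Control (30%, 36.4% and 42.1%), with overlapping libraries. The next, at position 19819880 of chromosome 4 in Slc7a13, a light chain gene, had 42.3% ± 8.57 in PR and 39.5% ± 7.11 in Control, although the gene's other listed CpG was at 98.3%. The single CpG of Slc38a3, the gene of a glutamine carrier of liver and astrocytes, had 70.1% ± 5.14 in PR and 66.4% ± 6.77 in Control. Within the low runs, the lowest CpG of Slc7a7 (54413987) had 55.5% ± 9.47 in PR and 55.7% ± 9.23 in Control, that of Slc1a5 (16796451) 57.1% ± 8.44 in PR and 57.0% ± 6.20 in Control, and that of Slc38a11 (65337616) 67.1% ± 9.07 in PR and 64.4% ± 11.8 in Control. At all 3 the libraries of the diets overlapped.

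Low CpGs lay in runs about as often as transporter CpGs did in general. Runs of at least 3 CpGs spaced by no more than 500 bp numbered 77 and held 364 CpGs, and 65 runs were at 95% or more against 6 under 90%. Of the 46 CpGs under 90%, 34 lay in a run, beside 364 of all 500 CpGs, and 12 in no run. The 6 low runs, which were picked by their mean, held 23 of the 46. The share under 90% was 12.7% among CpGs with no listed neighbour within 500 bp and 8.41% among those with 6 or more. Besides the runs of Slc7a7 and Slc1a5 already described, the low runs were in Slc38a11 from 65337616 to 65337807 on chromosome 2, a flank of Slc38a1 from 96644785 to 96644957 on chromosome 15, and Slc7a8, a large neutral amino acid carrier of epithelia, from 54772351 to 54772632 on chromosome 14. The Slc38a1 flank, with 10 CpGs, had 87.5% ± 4.41 in PR (80.6%, 88.3% and 93.2%) and 89.1% ± 4.27 in Control (82.3%, 88.7% and 94.8%). Its spread between libraries exceeded the difference between diets. The 34 CpGs of Slc38a1 inside its span and these 10 together gave the gene 95.1% ± 0.983 in PR and 95.4% ± 1.04 in Control.

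Levels were also set out by position. Within 1000 bp of a known start the 32 CpGs, from 6 genes, averaged 91.2% ± 1.03 in PR and 91.7% ± 1.72 in Control, and 25% of them were under 90%. From 1000 to 5000 bp the mean was 94.7% ± 0.417 in PR and 94.6% ± 0.228 in Control over 53 CpGs, and at 5000 to 20000 bp it was 97.1% ± 0.261 in PR and 97.1% ± 0.308 in Control over 118. The low mean next to starts rested largely on a single gene. Without the 6 CpGs of Slc7a7, which averaged 76.5% ± 3.36 in PR and 77.4% ± 5.08 in Control, the other 26 stood at 94.6% ± 1.22 in PR and 95% ± 1.41 in Control, and the median of the 32 was 96.3%. CpGs in the flanks alone averaged 93.0% ± 1.5 in PR and 93.7% ± 1.57 in Control, against 96.2% ± 0.113 in PR and 96.2% ± 0.124 in Control inside spans, but without the 10 flanking CpGs of Slc38a1 the flanks stood at 95.4% ± 0.908 in PR and 95.8% ± 1.28 in Control. Starts were not given for 114 of the CpGs, and places in exons, introns and untranslated regions were not analysed here.

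Differences between diets were tested for every CpG of the series with a quasi-binomial logistic model of methylated and total counts, and p-values were adjusted over all CpGs by the method of Benjamini and Hochberg, with a call at an adjusted p under 0.05. None of the 500 transporter CpGs was called, and over all 204492 CpGs the share called was 0%. At an unadjusted p under 0.05 there were 18 transporter CpGs (3.6%), against 3.79% over all CpGs. Of these 7 were higher in PR, against a background of 1.89%, and 11 were lower in PR, against 1.9%. limma on percent methylation, the other tool, also called 0 and gave 22 transporter CpGs at an unadjusted p under 0.05. The share over all CpGs with limma is not given here, and the 3.79% belongs to the quasi-binomial model alone. Over the 500 CpGs the mean was higher in PR at 239, lower at 255 and equal at 6, beside a background of 49.8% higher in PR. The PR and Control libraries did not overlap at 0 transporter CpGs, with 0.0191% of all CpGs showing no overlap. These shares are close to the background and show nothing particular to the transporter CpGs.

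Most of the 18 CpGs sat at the top of the scale. In 9 of them every library of a diet read 100%, Control in 7 and PR in 2. No such count was made over all CpGs, and Control, with 7 libraries against 8, reaches 100% in all of them more easily. Only 1 of the 18 had a mean under 90%. That one lies in Slc7a1 at position 148358963 of chromosome 5 and was the only transporter CpG whose diets differed by 10 points or more (0.2%, against 0.121% of all other CpGs). It had 62.9% ± 11.1 in PR (45.8%, 63.5% and 75%) and 76.4% ± 6.09 in Control (65.2%, 76.9% and 82.4%), at a mean coverage of 24 reads. The libraries overlapped between 65.2% and 75%. The difference was -13.5 ± 4.56 points (SE), with an unadjusted p = 0.0231 and an adjusted p = 1. The run of 8 CpGs that holds it, from 148358940 to 148359185, averaged 92.0% ± 1.53 in PR and 93.6% ± 1.43 in Control. That mean includes the CpG itself. The adjoining window from 148359001 to 148360000, which does not hold it, was not lower in PR. Its 6 CpGs averaged 95.8% ± 2.27 in PR and 95.5% ± 1.71 in Control, a difference of 0.352 points.

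The smallest p belonged to a CpG of Slc7a14, a lysosomal member of the cationic carriers, at position 31296387 of chromosome 3. It had 93.0% ± 4.35 in PR (84.4%, 93.3% and 100%) and 97.7% ± 2.04 in Control (94.6%, 97.9% and 100%), with an unadjusted p = 0.00617 and an adjusted p = 1. The groups overlapped, since a PR library and 2 Control libraries read 100%. In the same direction, CpGs of the proton-coupled carrier gene Slc36a3 (position 55127801, 97.3% ± 1.04 in PR and 99.4% ± 0.996 in Control), of Slc6a20b (123593784, 96.7% ± 3.61 in PR and 100% in every Control library) and of Slc38a4 (97019743, 97.1% ± 3.57 in PR and 100% in every Control library) had unadjusted p-values of 0.0130, 0.0133 and 0.0174.

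In the other direction the smallest p was that of a CpG of Slc6a13 at position 121337128 of chromosome 6, some distance from the promoter printed above. It had 99.5% ± 1.47 in PR (95.8%, 100% and 100%) and 93.3% ± 5.25 in Control (87.5%, 91.7% and 100%), with an unadjusted p = 0.00888 and an adjusted p = 1. In PR 7 of 8 libraries were at 100%, as were 2 of 7 in Control, so the groups overlapped. Next were CpGs of the dopamine carrier gene Slc6a3 (position 73538507, 98.3% ± 2.37 in PR and 92.6% ± 4.98 in Control), of Slc7a7 (54410301, place 152 of the printed promoter, 99.1% ± 1.24 in PR and 95.8% ± 4.12 in Control), of the glial glutamate carrier gene Slc1a3 (8700992, 96.9% ± 2.50 in PR and 92.3% ± 5.61 in Control) and of Slc7a8 (54740679, 100% in every PR library and 98% ± 2.72 in Control). Their unadjusted p-values were 0.0189, 0.0245, 0.0302 and 0.0316. All 10 named CpGs had an adjusted p of 1.

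**Figure D4:**
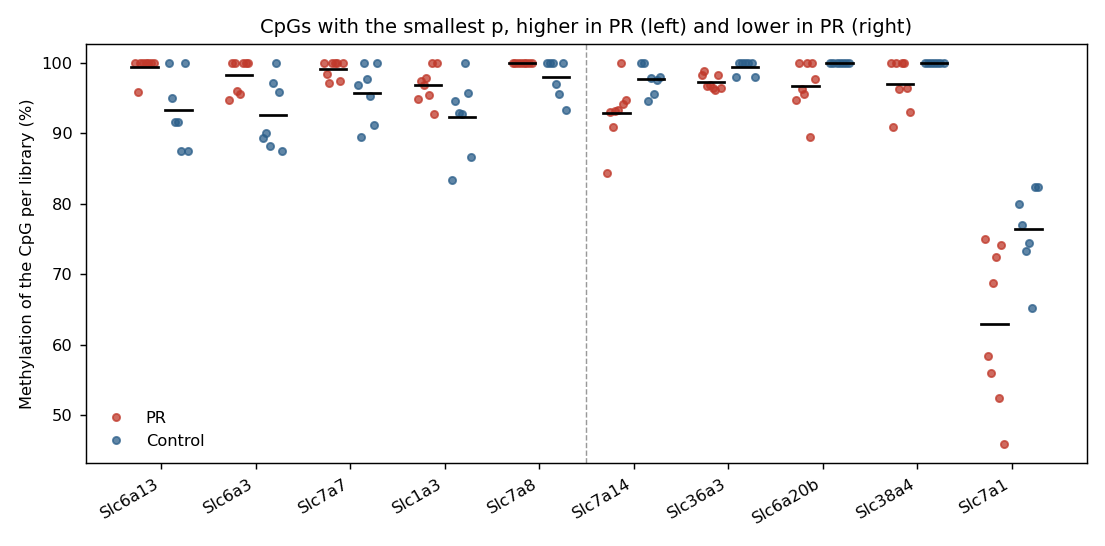
Methylation (percent) of the 10 named CpGs, 1 point per library, PR left of Control within each gene and bars at the mean; left of the dashed line are the 5 CpGs with the smallest p among those higher in PR, right of it the 5 among those lower in PR. All but the Slc7a1 CpG lie above 80%, and the points of the diets overlap in each.

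The same model on counts summed over each gene called 0 of the 44 transporter genes at an adjusted p under 0.05, and 0% of 13665 genes. At an unadjusted p under 0.05 there was 1 transporter gene, Slc7a14, against a background of 3.04%, with 0 higher in PR beside 1.6% of all genes and 1 lower beside 1.45%. limma also called 0 and gave 3 transporter genes at that unadjusted level. Its share over all genes is not given here, and the 3.04% belongs to the quasi-binomial model alone. Gene means were higher in PR in 20 of 44 genes, beside 50.4% of all genes, and lower in 24. No transporter gene had PR and Control libraries without overlap, as did 0.0293% of all genes. The median absolute difference of gene means was 0.331 points, against 0.389 over all genes, and the median signed difference was -0.0342 points, against 0.00491.

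For Slc7a14 the 5 CpGs averaged 97.4% ± 1.0 in PR (96.3%, 97.3% and 98.6%) and 98.6% ± 0.864 in Control (97%, 99.0% and 99.5%), a difference of -1.19 ± 0.481 points (SE), with an unadjusted p = 0.0117 and an adjusted p = 0.999. The groups overlapped between 97% and 98.6%. The 5 CpGs include the one at position 31296387 described above, which differed by -4.73 points. It is the only 1 of the 5 with an unadjusted p under 0.05 in the test of CpGs. The gene result is therefore not separate from that CpG, and the gene was not tested without it. Slc6a20b and Slc43a3 also differed by over 2 SE, both lower in PR. The share of all genes beyond 2 SE was not worked out, so these genes are examples alone. Slc6a20b, a neighbour of the proline carrier gene Slc6a20a, has all 3 of its CpGs in a flank. It had 97.6% ± 2.07 in PR and 99.5% ± 0.753 in Control. Slc43a3, which encodes a carrier of purine bases, had 97.6% ± 1.25 in PR and 99.0% ± 0.749 in Control. The adjusted p-values of both genes were 0.999.

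Further differences at the negative end were within 2 SE of 0. They included -0.868 points for Slc7a1, -0.637 for Slc1a5, -0.589 for the retinal glutamate carrier gene Slc1a7 and -0.554 for Slc1a3. At the positive end Slc38a11 had 2.02 ± 1.66 points (SE), followed by Slc1a1 with 1.19, Slc38a8 with 1.18, the betaine carrier gene Slc6a12 with 1.14, Slc36a1 with 0.879, Slc6a16 with 0.799, Slc6a2 with 0.575 and Slc6a3 with 0.568. Leaving out 1 library moved many of these by over 1.5 times. At the positive end the difference was 0.117 points for Slc6a2 without Control 6, 0.124 for Slc36a1 without Control 7, 0.595 for Slc38a8 without Control 3, 0.338 for Slc6a3 without PR 6, and, without Control 5, 0.575 for Slc6a12 and 0.0709 for Slc6a16. At the negative end it was -0.0649 for Slc1a5 without Control 6, -0.159 for Slc1a7 without Control 5 and -0.310 for Slc1a3 without Control 3. For Slc36a1 the sign depended on weighting, with -1.18 points when counts were summed over its CpGs. None of these passed the test, and each had an adjusted p of 0.999.

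**Figure D5:**
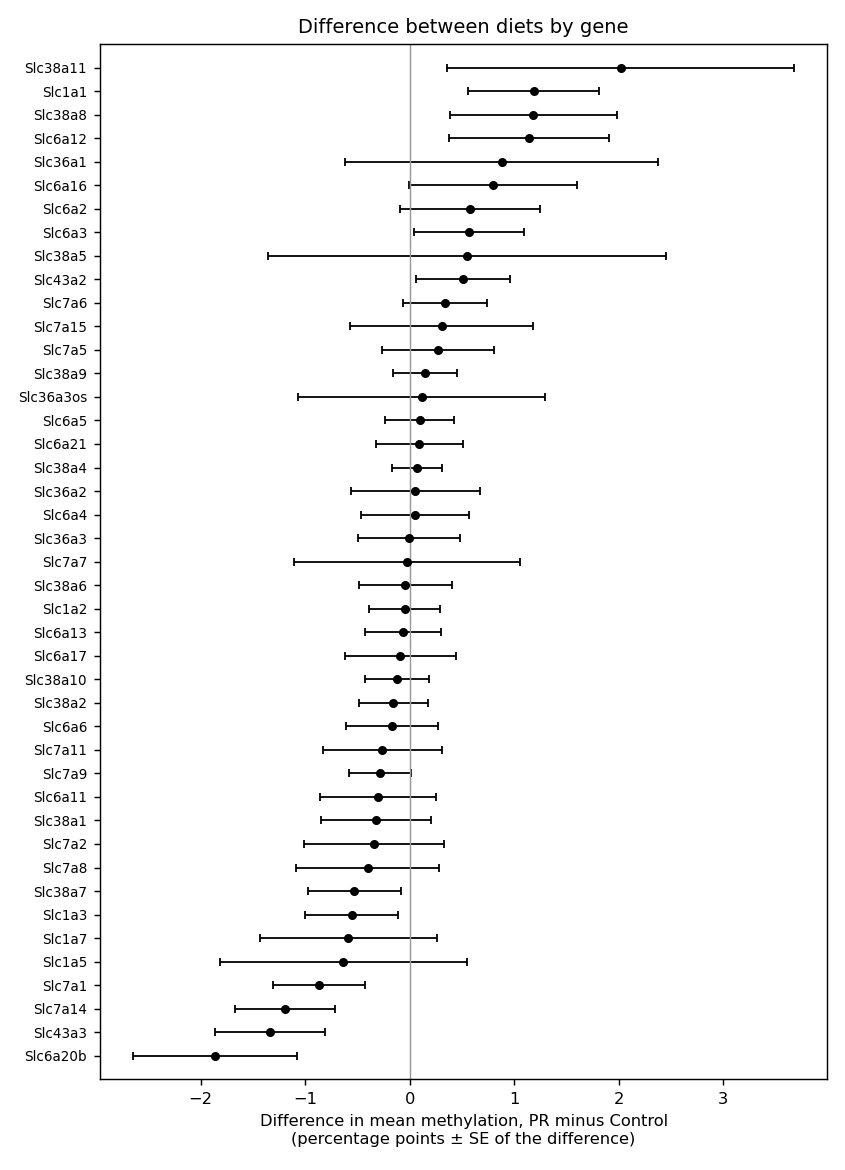
Difference in mean methylation (PR minus Control, percentage points) of the reported transporter genes with at least 3 listed CpGs, with the SE of the difference as whiskers, sorted from highest to lowest. Differences run from -1.86 in Slc6a20b to 2.02 in Slc38a11 and lie on both sides of 0.

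Single-CpG genes were too thinly measured for the gene test. The only CpG of Slc6a7, the brain proline carrier gene, had 94.1% ± 3.33 in PR (90%, 94.1% and 100%) and 98.3% ± 3.0 in Control (93.3%, 100% and 100%), with an unadjusted p = 0.0283 and an adjusted p = 1 in the test of CpGs. The groups overlapped. Slc6a9, the gene of the glycine carrier GlyT1, had 98.3% ± 1.35 in PR and 98.2% ± 1.0 in Control, and Slc36a4 had 98.7% ± 1.58 in PR and 99.1% ± 1.09 in Control.

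In windows of 1000 bp holding at least 3 CpGs, 0 of 76 transporter windows were called, and 0% of 28743 windows. At an unadjusted p under 0.05 there were 3, against 3.33%, with 1 higher in PR beside 1.64% and 2 lower beside 1.69%. limma called 0 and gave 2 at that level, and its share over all windows is not given here. In 37 windows the mean was higher in PR, beside 50.1% of all windows, and in 39 lower, and 0 windows had groups without overlap, beside 0.0383%. The window with the largest difference was that of Slc38a11, 65337001 to 65338000 on chromosome 2, which holds the low run. It had 86.3% ± 5.26 in PR (78.9%, 86.3% and 92.7%) and 81.8% ± 4.99 in Control (76.2%, 80.2% and 89.3%), with overlapping libraries, an unadjusted p = 0.212 and an adjusted p = 0.999. Unadjusted p-values under 0.05 included 0.0324 in Slc38a10 (120104001 to 120105000 on chromosome 11, 97.1% ± 0.869 in PR and 98.9% ± 0.686 in Control) and 0.0337 in Slc6a2 (92997001 to 92998000 on chromosome 8, 98.6% ± 1.24 in PR and 96.9% ± 2.13 in Control). The windows of Slc6a16 and Slc6a20b hold the same CpGs as these genes, with unadjusted p-values of 0.182 and 0.0650.

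The spread between libraries was close to that of the series over all CpGs. The dispersion of the model, 1 where libraries of a diet differ by counting error alone, had a median of 0.933 over transporter CpGs and 0.955 over all other CpGs, and it exceeded 2 at 2.2% of transporter CpGs, against 2.86% of all CpGs. Under 90% methylation its median was 1.34 at transporter CpGs and 1.13 at all CpGs, and for genes it was 1.22 over the transporter genes and 1.16 over all genes. The SD within a diet had a median of 7.62 points at transporter CpGs under 90% and 2.28 points at the others. Among genes the widest were Slc38a5, a glutamine carrier gene on the X chromosome, with 3.55 points, Slc38a11 with 3.19, Slc36a1 with 2.83, Slc1a5 with 2.31 and Slc36a3os with 2.18, against a median of 1.02 over the 44 genes and 1.11 over all genes. Slc38a5 and Slc36a3os rest on 3 CpGs each at mean coverages of 17.9 and 17.3 reads, and the other three on low CpGs, so depth and level moved with the spread, whose source was not tested.

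A list of 21 other amino acid and peptide transport genes, such as vesicular glutamate carriers, mitochondrial carriers and the glycoprotein heavy chains, was set beside these families. Of these 15 had a listed CpG and 11 had 3 or more. Their 151 CpGs averaged 96.7% ± 0.181 in PR and 96.8% ± 0.241 in Control, and the mean was higher in PR in 7 genes and lower in 4, with 0 genes called and 0 at an unadjusted p under 0.05. The smallest unadjusted p-values were 0.279 for Slc15a3, a lysosomal peptide carrier gene, 0.353 for Slc25a12 and 0.362 for Slc25a13, both genes of mitochondrial aspartate-glutamate carriers, and each had an adjusted p of 0.999.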

How the data were processed

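The authors deposited methylated and total read counts of each CpG for every library, not normalized. The submitters' processing notes name Bismark 0.7.12, Bowtie2 2.1.0 and mm10 without their roles, and trimming and position filters were not given in the sources used here. No position had under 11 methylated reads in a library, so the coverage minimum of 10 reads removed none. Gene spans, strands and promoters came from RefSeq GRCm38.p6. The members and role lists were chosen with earlier results of these data known.

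Percent methylation is methylated over total counts. Group levels are means over CpGs of that percent, so a CpG counts equally whatever its depth, while the tests use counts. CpGs, genes with at least 3 CpGs and windows of 1000 bp were tested with a quasi-binomial logistic model on all 15 libraries (8 PR, 7 Control), with diets compared by F tests (13 residual degrees of freedom) and the dispersion floored at 1, and p-values were adjusted over all units after Benjamini and Hochberg, with calls under 0.05. The code was tested on simulated data. The alternatives were limma 3.58.1 (R 4.3.3) on percent, a minimum of 20 reads, no floor on dispersion, spans without flanks, genes with at least 1 CpG, windows of 500 bp, other weightings, averages over runs of consecutive library numbers, and leaving out each library. Leaving out Slc7a7, Slc38a1 or a CpG of Slc7a1 was chosen after seeing the data. Tools were Python 3.11.15, numpy 2.4.6, pandas 2.3.3, scipy 1.17.1 and statsmodels 0.14.6.

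Genes named are the 8 with the largest positive and the 8 with the largest negative difference, the 5 lowest, the 5 most variable, the 5 with most CpGs and the lowest of each family. CpGs named are the 5 with the smallest p in each direction and the 8 lowest, 1 per gene, and windows named are the 3 with the smallest p in each direction. Other genes are named as examples of a role, a low run or a level, and were chosen after their values were seen. A gene that the rule names, with its window, is not reported here.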

Additional observations from a re-analysis of the deposited data

Results flagged for a closer look

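In 13 of 122 sets of values examined, a library stood apart from the others of its diet by more than Dixon's 95% limit. Chance gives about 1 in 20, but that rate need not hold for values near 100%. It also does not apply to genes, CpGs and windows that were named for their spread or differences, or to lists that share CpGs. The count of 13 can therefore not be set against it. Among gene lists, Slc1a was at 93.0% in Control 1, with the other Control libraries from 93.9% to 94.5%. Excitatory glutamate and aspartate uptake was at 96.9% in PR 2, with the others from 95.5% to 96.1%. Epithelial and neuronal neutral amino acid transport was at 96.7% in Control 5, with the others from 98.1% to 98.9%.

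Among PR libraries, Slc38a10 was at 99.5% in PR 7 (others 97.7% to 98.3%), Slc38a3 at 81.1% in PR 5 (others 64.4% to 71.9%) and Slc38a8 at 95.2% in PR 3 (others 97.4% to 98.9%). The Slc6a13 CpG at 121337128 read 95.8% in PR 2 and 100% in the others.

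Among Control libraries, Slc38a5 was at 87.9% (others 95.2% to 100%), Slc6a12 at 93.8% (others 96.8% to 99.0%) and Slc6a16 at 93.3% (others 97.3% to 99.3%), all in Control 5. Slc36a3os was at 92.2% (others 98% to 100%) in Control 2, in which the Slc7a7 CpG at 54413987 was at 74.2% (others 47.6% to 58.1%). Slc38a10 was at 97% in Control 6 (others 98.4% to 98.8%). Without Control 5 the difference of Slc38a5 was -0.928 points, against 0.551 with it, and that of Slc6a16 was 0.0709 points, against 0.799. Without Control 2 the difference of Slc36a3os was -0.921 points, against 0.117.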

How the results depend on the processing

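No transporter CpG, gene or window was called at an adjusted p under 0.05 with limma, with a minimum of 20 reads, without the floor on dispersion (CpGs alone), with spans alone, with single-CpG genes, with windows of 500 bp or without any of the 15 libraries. Without the floor 194 CpGs of the series were called, 0 of them transporter CpGs, and 38 transporter CpGs had an unadjusted p under 0.05. Leaving out a library, that number was 12 to 21 for CpGs, 1 to 2 for genes (2 without PR 2, PR 5, PR 8, Control 2 or Control 7) and 1 to 4 for windows (1 without PR 3, PR 4, PR 7, Control 3, Control 5 or Control 6). Counts at an unadjusted p under 0.05 are given here without their shares over all units in the same setting. They cannot be set against the backgrounds given earlier, which belong to the model with the floor on all libraries. A minimum of 20 reads kept 201 transporter CpGs and 26 genes, with 5 CpGs, 0 genes and 0 windows at that level; the difference became 0.402 points for glutamate and aspartate uptake (-0.179 before) and -0.0782 for cationic carriers (-0.823 before, and -0.439 without 1 CpG of Slc7a1), and monoamine and epithelial carriers gave no value. With a mean over genes in place of CpGs it became 0.588 for Slc38a, 1.17 for Slc43a and -1.33 for glycine and proline carriers, for which each gene then weighs the same whatever its number of CpGs. Of 318 alternative values of group differences 313 lay within 1 SD of the first value, as did all 416 of the 26 named genes. Of these, 32 and 19 changed sign. Most of the alternatives leave out 1 library, which can move a difference by only part of that SD. Their closeness was thus largely fixed in advance and says little about stability. In alternatives chosen after seeing the data, the level within 1000 bp of a start was 94.8% without Slc7a7 (91.4% with it), and that of the flanks 95.6% without Slc38a1 (93.3% with it). No paired analysis was possible because the library numbers are not shared between diets. Depth limits what single CpGs can show, since transporter CpGs had a median coverage of 29.7 reads, and the list leaves out weakly methylated CpGs.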

Other observations

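The transporter CpG with the highest dispersion, chosen after its values were seen, lies in Slc36a2 at position 55170114 of chromosome 11, with a dispersion of 4.40 and a mean of 88.4%. Its libraries ran from 67.4% to 100% in PR and from 68.2% to 100% in Control.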
